A study of Arabidopsis thaliana with 6 samples.

Results

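Transcripts of the citrate cycle and of the mitochondrial pyruvate dehydrogenase complex were followed in shoots of phosphate-starved and nutrient-replete Brassica oleracea. The members are 30 Arabidopsis loci of these enzymes, chosen by function. Of them, 15 were measured on all 6 arrays, through 16 of the 19578 probe sets compared there. Named probe sets among these cover 11392 genes in all. A further locus, AT4G26910, was listed on the replicate 1 arrays alone, and the other 14 had no probe set naming them as its only gene in the annotation used here.

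In plant mitochondria the pyruvate dehydrogenase complex turns pyruvate into acetyl-CoA, and the citrate cycle oxidises that acetyl group while passing electrons to the respiratory chain. The cycle also supplies citrate, malate and 2-oxoglutarate for export and for nitrogen assimilation. Under phosphate shortage many plants make and release more organic acids, chiefly from roots, and these free phosphate bound in soil.

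The series compared 3 arrays of phosphate-starved (P-starved) shoots with 3 arrays of nutrient-replete (replete) shoots. All plants were of var. alboglabra, line A12dH, in compost at 22 °C with 16 h of light and daily deionised water, per the labels. The RNA was hybridised to ATH1 arrays designed for Arabidopsis thaliana, so a gene name stands for the Arabidopsis gene for which the probes were made, and Brassica gene copies are not resolved. The sources used here give neither how long phosphate was withheld, nor the plants' age, nor whether replicates were separate plants. The p-values therefore measure the spread of these arrays only, and part of it may be technical.

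The arrays fell into 2 processing sets by the probe sets they list. Both replicate 1 arrays listed 22810, and the 4 arrays of replicates 2 and 3 listed 19642. Log2 signals correlated across probe sets with r of 0.903 to 0.927 within a set and 0.608 to 0.633 between sets. Signal here is the linear MAS5 intensity, scaled to a 2% trimmed mean of 100 per array, and the median signal was 67.1 to 67.8 in the first set and 43.8 to 46.4 in the second. Each set held both groups, so group differences were taken within sets, with the set as a term in limma, on the log2(signal + 16) scale. Differences are P-starved minus replete with their standard error (SE) or 95% interval, and they understate changes of dim probe sets. The leaf marker LHCB4.1, the only one of 12 measured, had 1217 to 2745 in P-starved and 919 to 2496 in replete shoots. Of 8 root markers 4 were measured, and their summed signal was 309, 267 and 178 on P-starved replicates 1 to 3, against 280, 118 and 129 on replete replicates 1 to 3. Within each set every P-starved sum was above every replete sum. The marker AT2G39430 made up 122 of the sum on P-starved replicate 2. It had 10.5 on P-starved replicate 3, and 12.9 and 11.1 on replete replicates 2 and 3, with a log2 difference of 0.84 ± 0.65. Of the 4, PYK10 alone had no array under a signal of 16, while AT5G66390 and AT2G39430 had 3 such arrays each and AT4G11290 had 2. Values were higher in P-starved shoots for 3 markers, among them AT5G66390 with a log2 difference of 0.73 ± 0.26 (unadjusted p from limma 0.0312, adjusted p 0.788). AT4G11290 was lower in both sets, at -0.38 ± 0.41. For replicate 1 the brightest marker was AT2G39430, with 193 in P-starved against 155 in replete shoots, whereas AT4G11290 had 27.0 against 58.7. The part of the root markers in the results below was not tested.

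Over all 19578 probe sets limma called 0 higher and 0 lower in P-starved shoots at an adjusted p under 0.05, which is 0% in each direction, with a smallest adjusted p of 0.788. None of the 15 genes passed either, and the smallest adjusted p among them was also 0.788. At an unadjusted p under 0.05 there were 2 of the 15, both with lower values in P-starved shoots, where 3.2% of all probe sets were lower and 2.71% higher at that threshold. They were MAB1 of pyruvate dehydrogenase and AT2G20420 of succinyl-CoA ligase. In all, 7 of the 15 had higher and 8 lower values in P-starved shoots, and the median of their log2 differences was -0.048. Over all probe sets 52.6% were above 0 and 47.4% below it, and their median was 0.017. The genes of these enzymes stood on both sides of 0, from -0.89 to 0.65.

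**Figure D1:**
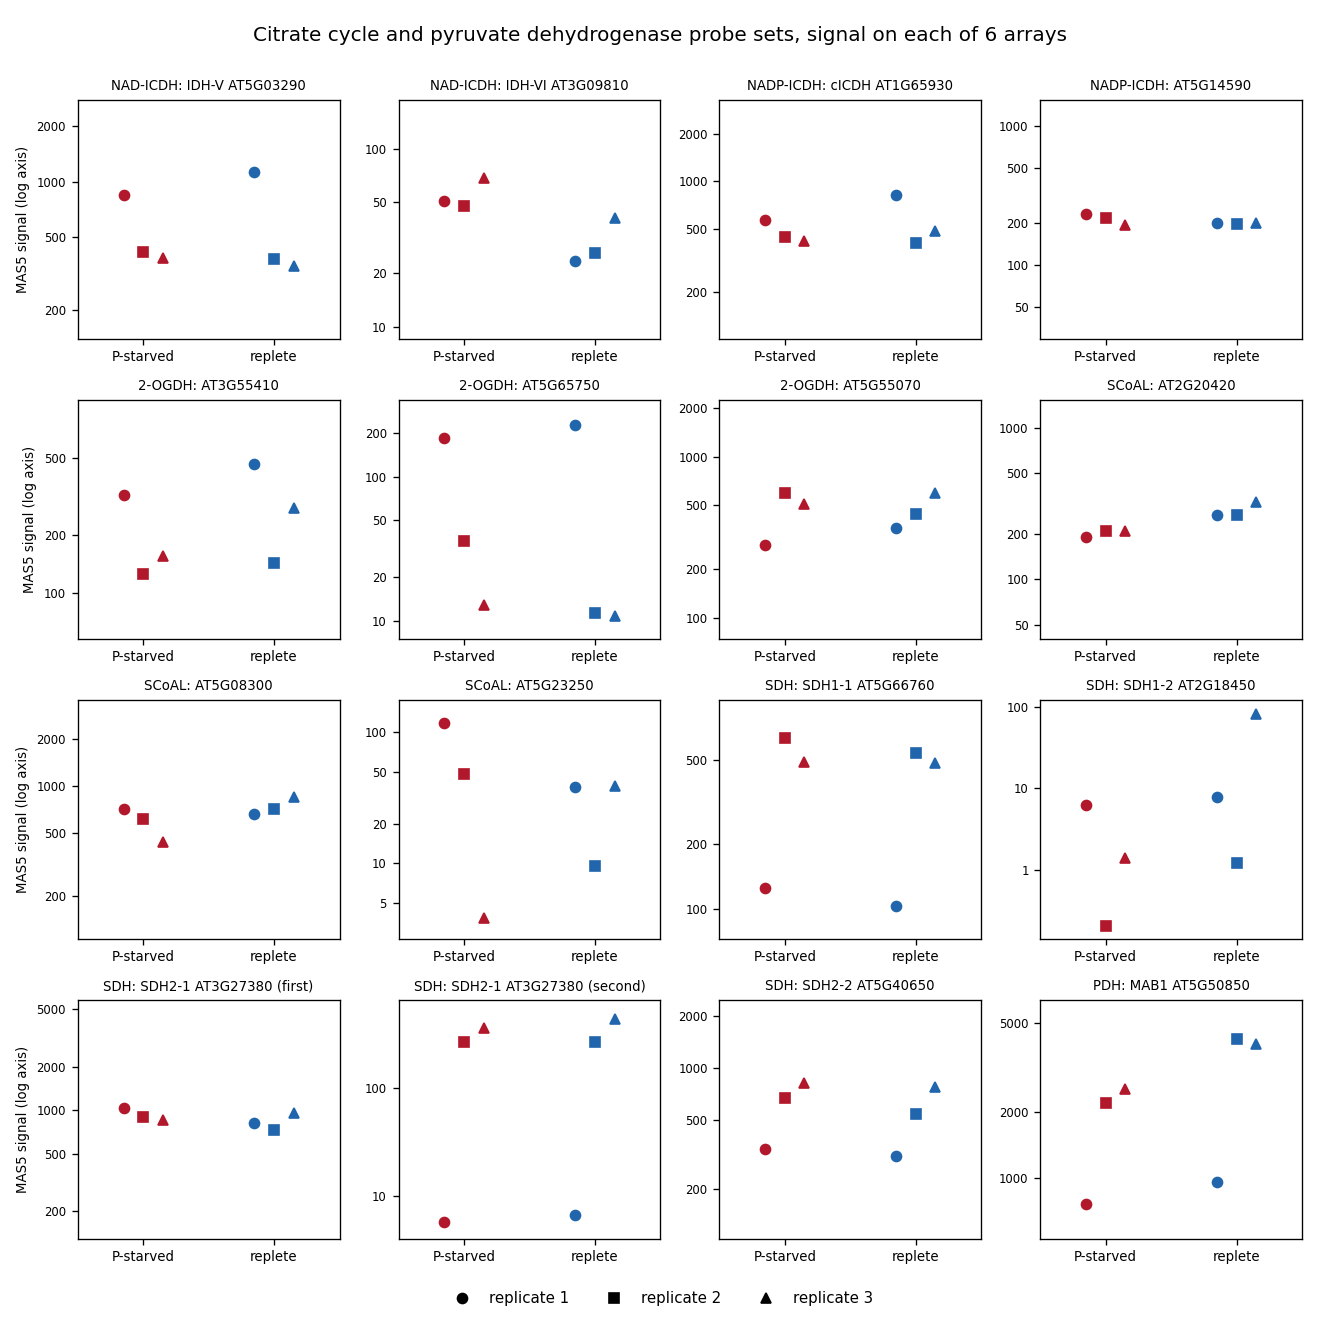
MAS5 signal (log axis) of the 16 probe sets on each array, with P-starved arrays on the left in red, replete arrays on the right in blue, and a marker shape for each replicate number. NAD-ICDH and NADP-ICDH are isocitrate dehydrogenases, 2-OGDH is 2-oxoglutarate dehydrogenase, SCoAL succinyl-CoA ligase, SDH succinate dehydrogenase and PDH pyruvate dehydrogenase. In MAB1 each P-starved array lies below the replete arrays of its own processing set, while the replicate 1 arrays of both groups lie below all others.

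Pyruvate dehydrogenase is the entry to the cycle. MAB1 (AT5G50850), which encodes the beta subunit of its E1 component, the part that decarboxylates pyruvate, had a signal of 763, 2186 and 2533 on P-starved replicates 1 to 3, against 965, 4256 and 4057 on replete replicates 1 to 3. Array values below keep this order of replicates. Each P-starved array was lower than the replete arrays of its set, although the groups overlapped over all 6 arrays, with both replicate 1 arrays low. Of all probe sets 8.59% were lower within both sets in this way and 12.5% higher, and the first set has 1 array per group. The log2 difference was -0.65 ± 0.15 (SE), with a 95% interval of -1.03 to -0.28, which is a ratio of 0.635 of P-starved over replete. The replicate 1 arrays gave -0.33 and the replicate 2 and 3 arrays -0.82. In limma the unadjusted p was 0.00603 and the adjusted p 0.788. In RNA of whole shoots, fewer cells of a type and less RNA per cell cannot be told apart. With group as the only term the SE takes in the difference between the sets, and the unadjusted p from limma was 0.399. The genes of the E1 alpha subunit, E1 ALPHA (AT1G59900) and IAR4 (AT1G24180), were not analysed here.

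The E2 component, which carries the acetyl group to coenzyme A, is encoded by 3 genes that are not among the 30 loci and were measured on all arrays. AT3G13930 had 224, 39.8 and 57.3 in P-starved shoots, against 259, 83.4 and 92.6 in replete shoots. Each P-starved array was below the replete arrays of its set, as for 8.59% of all probe sets, and the log2 difference was -0.53 ± 0.23. AT1G54220 had 246, 314 and 293 in P-starved shoots, against 231, 168 and 275 in replete shoots. Here each P-starved array was above the replete arrays of its set, as for 12.5% of all probe sets, and the log2 difference was 0.34 ± 0.22. LTA3 (AT3G52200) was under a signal of 16 on 5 arrays, with a log2 difference of -0.34 ± 0.18. No E2 gene passed the test (adjusted p 0.788 in limma for each), and the E1 beta and E2 genes did not have one direction.

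The plastid holds a separate pyruvate dehydrogenase complex for fatty acid synthesis, of which 2 of 7 listed genes were measured. Its E1 beta gene AT2G34590 had 117, 205 and 54.1 in P-starved shoots, against 114, 352 and 304 in replete shoots. Its log2 difference was -0.96 ± 0.53. On the replicate 1 arrays the groups were close, at 0.040, and on the others the difference was -1.46. The E3 gene AT4G16155, for the dihydrolipoyl dehydrogenase, had -0.12 ± 0.18.

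**Figure D2:**
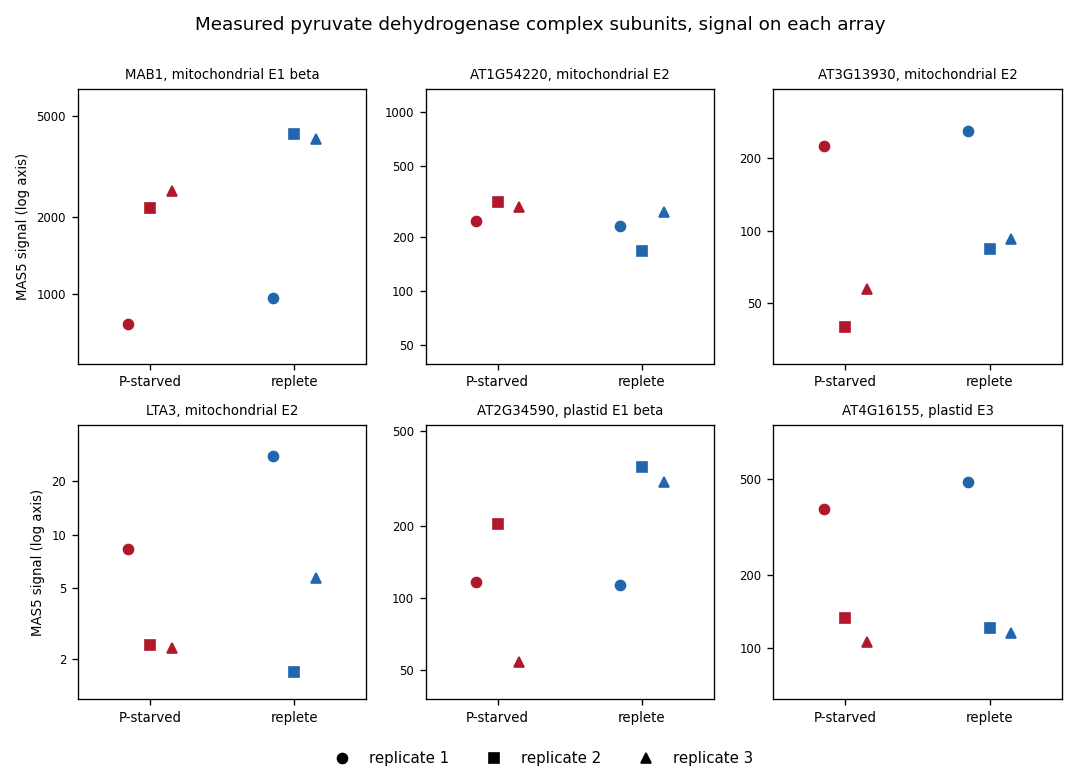
MAS5 signal (log axis) of 6 measured subunits of the mitochondrial and plastid pyruvate dehydrogenase complexes on P-starved arrays (left, red) and replete arrays (right, blue), with a marker for each replicate number. MAB1 and AT3G13930 are lower on the P-starved arrays of each processing set and AT1G54220 is higher.

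Isocitrate dehydrogenase makes 2-oxoglutarate. The NAD-dependent enzyme belongs to the cycle, and 2 of its 4 listed genes were measured, both for catalytic subunits. IDH-VI (AT3G09810) had 50.8, 47.9 and 68.7 in P-starved shoots, against 23.5, 26.0 and 40.7 in replete shoots. All P-starved arrays were above all replete arrays, which held for 2.33% of all probe sets in this direction. The log2 difference was 0.65 ± 0.28 with a 95% interval of -0.044 to 1.34, with 0.76 from the replicate 1 arrays and 0.59 from the others. The unadjusted p in limma was 0.0616. It was 0.0253 with no trend of the variance on level, 0.213 with group as the only term and 0.222 on the replicate 2 and 3 arrays alone. IDH-V (AT5G03290) had 841, 412 and 385 in P-starved shoots, against 1121, 378 and 346 in replete shoots. It was lower in P-starved shoots on the replicate 1 arrays, at -0.41, and higher on the others, at 0.13. The interaction of group and set in limma had an unadjusted p of 0.0834 and an adjusted p of 0.587, the smallest of the 15 genes. IDH-III (AT4G35650), another subunit gene outside the 30 loci, had 9.999, 12.2 and 9.90 in P-starved shoots, against 5.30, 5.50 and 7.60 in replete shoots. The groups did not overlap, with a log2 difference of 0.27 ± 0.10, but every array was under a signal of 16. IDH1 (AT4G35260) and IDH2 (AT2G17130) were not analysed here.

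The NADP-dependent isocitrate dehydrogenases work outside the cycle and make NADPH. The cytosolic cICDH (AT1G65930) had 573, 449 and 422 in P-starved shoots, against 814, 407 and 486 in replete shoots. Only the replicate 1 arrays were far apart, at -0.50, while the others gave -0.031. The fitted log2 difference was -0.19 ± 0.16. AT5G14590, for an organellar form, had 234, 218 and 194 in P-starved shoots, against 201, 198 and 200.3 in replete shoots. The groups overlapped, and the log2 difference was 0.10 ± 0.15 with a 95% interval of -0.27 to 0.47.

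2-Oxoglutarate dehydrogenase makes succinyl-CoA, and 3 of its 4 genes were measured on all arrays. AT3G55410, for the E1 component that takes up 2-oxoglutarate, had 321, 125 and 156 in P-starved shoots, against 464, 144 and 275 in replete shoots. The groups overlapped within the second set, where P-starved replicate 3 lay above replete replicate 2. Its log2 difference was -0.49 ± 0.26, with -0.51 and -0.47 in the 2 sets, and -0.24 without replete replicate 3 and -0.74 without replete replicate 2. The other E1 gene, AT5G65750, had 186, 35.6 and 12.9 in P-starved shoots, against 227, 11.3 and 10.7 in replete shoots. P-starved replicate 2 stood apart, and the log2 difference of 0.26 ± 0.35 became -0.057 without it. AT5G55070, for the E2 component, had 282, 593 and 507 in P-starved shoots, against 363, 439 and 592 in replete shoots. Its groups overlapped, and the log2 difference was -0.048 ± 0.19. The second E2 gene, AT4G26910, was listed for the replicate 1 arrays alone and was not tested.

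Succinyl-CoA ligase, built of an alpha and a beta subunit, is the step of the cycle that makes ATP directly. AT2G20420, the beta subunit gene, had 191, 207 and 209.6 in P-starved shoots, against 267, 266 and 323 in replete shoots. All P-starved arrays were below all replete arrays, which held for 1.92% of all probe sets in this direction. The log2 difference was -0.46 ± 0.15, with a 95% interval of -0.83 to -0.087 and a ratio of 0.728 of P-starved over replete. The replicate 1 arrays gave -0.45 and the others -0.46, and the unadjusted p in limma was 0.0239, or 0.11 with group as the only term. The mean signal was 202 ± 9.95 in P-starved and 285 ± 32.7 in replete shoots (SD, n = 3 each).

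The alpha subunit genes did not share that pattern in both sets. AT5G08300 had 710 on P-starved replicate 1 and 613 and 441 on replicates 2 and 3, against 666 on replete replicate 1 and 712 and 850.4 on replicates 2 and 3. Its P-starved values were lower in the second set, at -0.57, and stood at 0.090 on the replicate 1 arrays. The fitted log2 difference was -0.35 ± 0.21, and it was -0.15 without P-starved replicate 3, -0.21 without replete replicate 3 and -0.57 without either replicate 1 array. AT5G23250 had 117, 47.6 and 3.80 in P-starved shoots, against 38.3, 9.60 and 38.9 in replete shoots. Its arrays scattered widely within each group, and the log2 difference was 0.38 ± 0.61 with a 95% interval of -1.13 to 1.89. Without P-starved replicate 3 it was 0.99, 0.028 without P-starved replicate 2, 0.19 without replete replicate 2, 0.82 without replete replicate 3 and -0.079 without either replicate 1 array.

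Succinate dehydrogenase is also complex II of the respiratory chain. Of its 5 listed genes 4 were measured, and 3 of these had slightly higher values in P-starved shoots. SDH1-1 (AT5G66760), for the flavoprotein subunit that oxidises succinate, had 125, 634 and 487 in P-starved shoots, against 103, 538 and 484 in replete shoots. P-starved replicate 1 lay above replete replicate 1, while the values of the second set interleaved, and the log2 difference was 0.16 ± 0.16. SDH2-2 (AT5G40650), for the iron-sulfur subunit that passes electrons on, had 341, 668 and 823 in P-starved shoots, against 309.8, 543 and 777 in replete shoots, with a log2 difference of 0.17 ± 0.18. SDH2-1 (AT3G27380), for the same subunit, had 1028, 889 and 855 in P-starved shoots, against 811, 723 and 947 in replete shoots. Its log2 difference was 0.16 ± 0.15, with a 95% interval of -0.22 to 0.54.

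A second probe set for SDH2-1 gave another picture of its level. It had 5.80, 271 and 366 in P-starved shoots, against 6.80, 271 and 439 in replete shoots. It stood 3.96 ± 0.27 higher on the log2 scale on the replicate 2 and 3 arrays than on replicate 1, against -0.10 ± 0.16 for the first probe set. Between the groups its log2 difference was -0.11 ± 0.25. SDH1-2 (AT2G18450), for the flavoprotein subunit, had 6.30, 0.20 and 1.40 in P-starved shoots, against 7.90, 1.20 and 82.3 in replete shoots. Replete replicate 3 alone stood out, and the log2 difference of -0.89 ± 0.67 became -0.063 without that array and -1.50 without replete replicate 2. SDH2-3 (AT5G65165) was not analysed here.

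**Figure D3:**
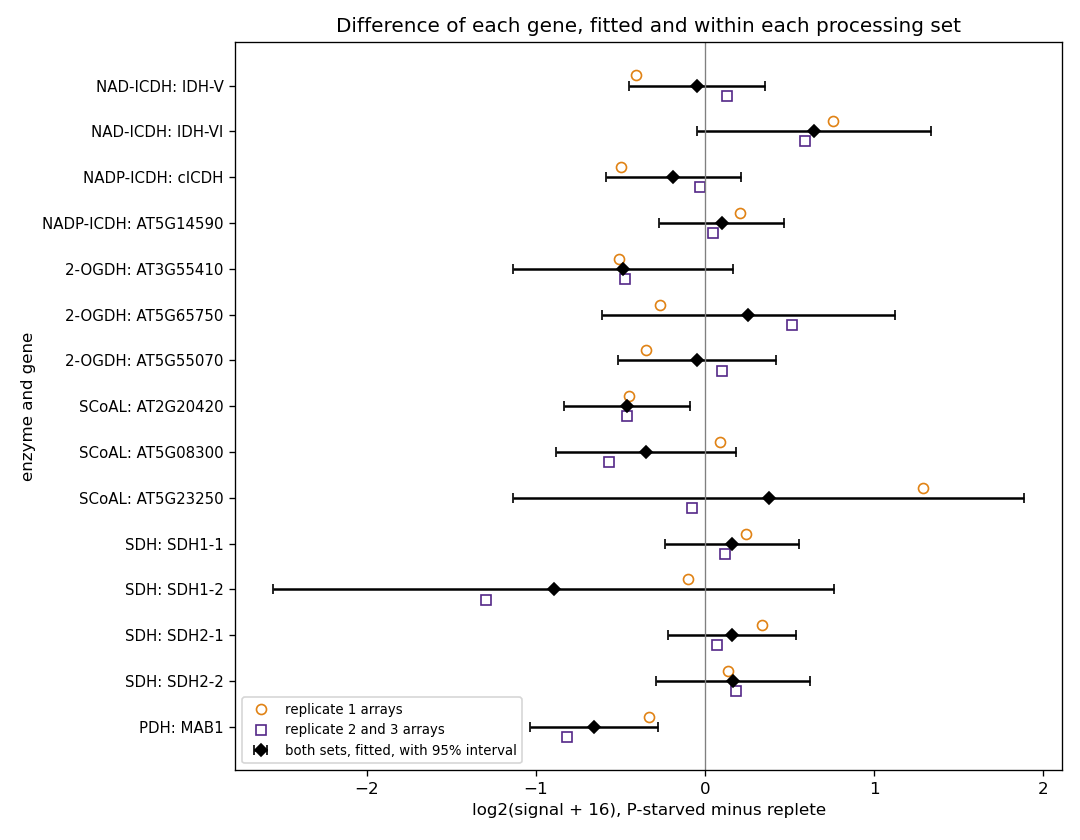
Log2 difference of P-starved minus replete, on the log2(signal + 16) scale, for the 15 measured genes by enzyme, as fitted over both processing sets with its 95% interval (black), on the replicate 1 arrays (orange circles) and on the replicate 2 and 3 arrays (purple squares). The interval leaves out 0 for MAB1 and AT2G20420, before adjustment over all probe sets.

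Citrate synthase (ATCS, AT2G44350, and CSY5, AT3G60100), which joins acetyl-CoA to oxaloacetate, and aconitase, which turns citrate into isocitrate, were not analysed here. Nor were fumarase (FUM1, AT2G47510, and FUM2, AT5G50950), which makes malate, and the mitochondrial malate dehydrogenase (mMDH1, AT1G53240, and mMDH2, AT3G15020), which restores oxaloacetate. With these 9 loci, 4 of the 10 enzyme steps, among them the one that makes citrate and the one that makes malate, are not described. In several of the 6 steps that were measured, genes of 1 enzyme had fitted differences on either side of 0. IDH-VI was at 0.65 ± 0.28 and IDH-V at -0.048 ± 0.16, and AT5G65750 at 0.26 ± 0.35 and AT3G55410 at -0.49 ± 0.26. AT5G23250 was at 0.38 ± 0.61 and AT2G20420 at -0.46 ± 0.15. The sign of IDH-V, AT5G65750 and AT5G23250 was not the same in both processing sets. Whether the genes of an enzyme differed from each other was not tested.

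Between the processing sets 10 of the 15 genes had the same sign of the difference, where 52.1% of all probe sets did. Both sets gave lower values in P-starved shoots for 5 genes and higher values for 5, against 23.1% and 29% of all probe sets. IDH-VI, AT2G20420 and MAB1 were the genes whose groups did not overlap within either set with 1 direction, 1 of them higher and 2 lower. Of all probe sets 12.5% were higher and 8.59% lower in this way. The median difference of the 15 genes was -0.10 for replicate 1 and 0.045 for replicates 2 and 3. No gene of the 15 passed the interaction test of group and set in limma, nor did any of all probe sets (0% at an adjusted p under 0.05, and 9.94% at an unadjusted p under 0.05).

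**Figure D4:**
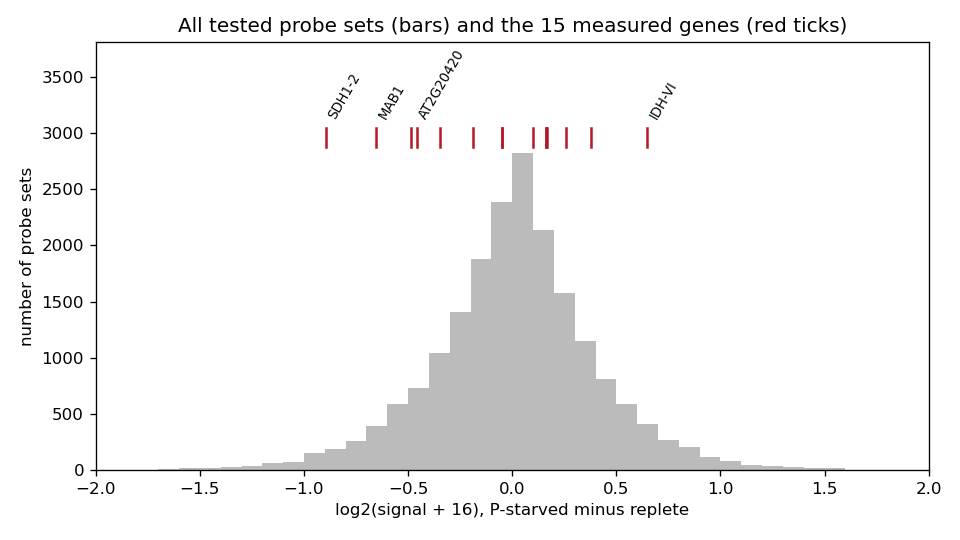
Number of probe sets by log2 difference of P-starved minus replete (grey bars, 0.1 wide, axis from -2 to 2) with the 15 measured genes as red ticks, 4 of them named. The genes spread over both sides of 0, from SDH1-2 at -0.89 to IDH-VI at 0.65.

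The level of several genes differed between the sets by more than it did between the groups. In limma's term for the set, 4 of the 15 genes were higher on the replicate 2 and 3 arrays and 4 were lower, at an adjusted p under 0.05, where 14.6% of all probe sets were higher and 28.8% lower. SDH1-1 was higher by 2.08 ± 0.17 on the log2 scale (adjusted p 0.000702), MAB1 by 1.85 ± 0.16 (0.000831), SDH2-2 by 1.06 ± 0.19 and AT5G55070 by 0.70 ± 0.20. AT5G65750 stood at -2.78 ± 0.37, IDH-V at -1.32 ± 0.17, AT3G55410 at -1.14 ± 0.28 and cICDH at -0.62 ± 0.17. The median of all probe sets was -0.25 on this scale. After quantile normalization, where that median was 0.019, 3 genes were higher and 4 lower, AT5G55070 being the one that no longer passed. The sources used here do not say what made the sets differ.

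Other genes that make or use citrate, malate and pyruvate were read from 8 lists with 61 loci, of which 17 were measured on all arrays. Of the 17, 0 passed in either direction, 7 had higher and 10 lower values in P-starved shoots, and the median log2 difference was -0.12. No PEP carboxylase, PEP carboxykinase or malic enzyme gene was measured here. Of the malate dehydrogenases outside mitochondria both measured genes were lower over all arrays. AT5G58330, for the NADP-dependent enzyme that exports reducing power from chloroplasts as malate, had 1589, 787 and 773 in P-starved shoots, against 1947, 946 and 945.5 in replete shoots. Each P-starved array was below the replete arrays of its set, as for 8.59% of all probe sets. The log2 difference was -0.28 ± 0.11, with an unadjusted p in limma of 0.0418 and an adjusted p of 0.788. The plastid NAD-dependent MDH (AT3G47520) had -0.064 ± 0.27, with 0.68 in the first set and -0.44 in the second.

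ATP-citrate lyase splits citrate in the cytosol into oxaloacetate and acetyl-CoA, and 1 of its 4 measured genes had a higher and 3 had lower values in P-starved shoots. ACLA-2 (AT1G60810) had 954, 150.1 and 151 in P-starved shoots, against 1030.1, 173 and 307 in replete shoots. Its log2 difference was -0.42 ± 0.24. ACLA-3 (AT1G09430) had -0.19 ± 0.14 and was lower in both sets. All 3 measured mitochondrial carrier genes had higher values in P-starved shoots, where 52.6% of all probe sets were above 0. AT5G19760, for a carrier of dicarboxylates and tricarboxylates, had 2089, 2943 and 3278 in P-starved shoots, against 1599.5, 3185 and 2909 in replete shoots, with a log2 difference of 0.15 ± 0.14. The pyruvate carrier gene AT4G14695 had a signal of 8.60 or less on every array. For the third carrier gene the log2 difference was 0.54 ± 0.77, with 125 and 3.10 on replete replicates 2 and 3. In peroxisomes ICL (AT3G21720), the isocitrate lyase of the glyoxylate cycle, had -0.17 ± 0.28 and ICDH (AT1G54340), an isocitrate dehydrogenase, 0.045 ± 0.20. For ICDH the first set gave -0.50 and the second 0.31, and 4 of its arrays were under a signal of 16.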

How the data were processed

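The deposited values are linear MAS5 probe set intensity, made with MAS5 per the submitters' processing notes. For its version and for masked probes, nothing is stated in the sources. Each array was multiplied to a 2% trimmed mean of 100, the 64 control probe sets were left out, and log2(signal + 16) was taken, with no filter on low values. Of the 15 measured genes 12 had no array under a signal of 16. The number of arrays limits the precision, and detection calls were not used.

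The 19578 probe sets measured on every array were fitted in limma 3.58.1 (R 4.3.3), using lmFit and trended eBayes, with group and processing set as terms, two-sided, with Benjamini-Hochberg adjustment over all of them at 0.05. The code was tested on simulated data. Names came from the gene table of the platform, which gives 1 gene for 13513 probe sets and several for 503, joined to a table of Arabidopsis genes (TAIR10.1). Of several probe sets of a gene, the brightest on average was used. Coordinates are not given, since the build of the arrays is not named, nor are sequences, which were not among the sources used here.

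The members and all lists were chosen with earlier results of these data known. All members are named, with array values for at least the gene of smallest p of each step, and at most 2 genes of smallest p of each other list. AT1G54220 and LTA3 were named beside these after their values were seen. Same-numbered arrays of the 2 groups deviated together from their group means (r = 0.839, 0.551 and 0.530 across probe sets), but within the second set the difference of replicates 2 and 3 did not (r = 0.016), so the set carries that pairing.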

Additional observations from a re-analysis of the deposited data

Results flagged for a closer look

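AT4G26910, for the E2 component of 2-oxoglutarate dehydrogenase, was listed on the replicate 1 arrays alone and entered no test. Its signal there was 74.4 on the P-starved array and 45.4 on the replete array, a log2 difference of 0.56 with no replicate check. It was picked out as a signal in values that no comparison used, higher than on the replete array.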

How the results depend on the processing

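No probe set and none of the 15 genes was called by limma under any of the alternatives that gave a test: group as the only term, the replicate number as a block, the replicate 2 and 3 arrays only, offsets of 4 and 64, scaling over the shared probe sets, quantile normalization, the brighter 50% of the probe sets (12 of the 15 genes), eBayes without a trend, and leaving out arrays. The replicate block gave 0 calls, 7 of 15 genes higher and a median of -0.048, and changed no call. Leaving out both arrays of replicate 2 or of replicate 3 was added after seeing the data. So was the count of genes higher or lower between the sets. The set as a term of the main fit was planned. Unadjusted p under 0.05 was reached by 61 higher and 105 lower probe sets with group as the only term, and by 530 and 627 with the set. The number of genes with higher values was 5 to 8, and the median ran from -0.13 to 0.045, with 0.045 on the replicate 2 and 3 arrays alone. Of the 15 genes 10 kept the sign of their difference under every alternative that gave them a value, 18 for 8 of them and 17 for IDH-VI and SDH1-2, which were not among the brighter 50%. MAB1 (-0.82 to -0.33), AT2G20420 (-0.53 to -0.38) and IDH-VI (0.35 to 0.83) were among the 10. These alternatives are not separate checks of sign. Group as the only term, the replicate block, eBayes without a trend and the brighter 50% could not change a gene's fitted difference. The replicate 2 and 3 arrays alone and leaving out either replicate 1 array gave the same value. On the replicate 2 and 3 arrays alone the sign turned for IDH-V (0.13), AT5G55070 (0.10) and AT5G23250 (-0.079), and on the replicate 1 arrays alone for AT5G65750 (-0.26) and AT5G08300 (0.090). With arrays left out, IDH-V ran from -0.14 to 0.13, AT5G55070 from -0.28 to 0.10, AT5G23250 from -0.089 to 1.30 and AT5G65750 from -0.075 to 0.52. The causes were not tested. The 95% intervals reached 0.37 to 1.66 to either side of the fitted log2 difference.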
